A study of Homo sapiens with 6 samples.

Results

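The cytosolic ribosome is built from ribosomal RNA and a fixed set of proteins, and the genes of these proteins were followed in SW780 cells exposed to RC48. Genes were taken by symbol: RPL or RPS with a number and an optional A, X or L, together with RPLP0, RPLP1, RPLP2 and RPSA. Pseudogenes, read-through genes with a hyphen and the RPS6K kinases were left out. The rule found 79 of the 16390 genes listed, 32 of the small subunit (RPS genes and RPSA) and 47 of the large subunit (RPL and RPLP genes). RPL39L and RPL10L, which are paralogs best known from germ cells, were not among the genes listed.

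SW780 cells come from a human bladder cancer and are of the luminal type. RC48 (disitamab vedotin) is an antibody against ERBB2 that carries monomethyl auristatin E, a compound that blocks microtubule assembly. Total RNA was sequenced from 3 Control samples and from 3 samples that were given RC48 at 25 µg/ml, each as 1 library. The exposure time of these samples is not given in the sources used here, and all samples come from 1 cell line. Nothing says that the replicates were separate cultures, so the p-values measure only the spread between these libraries.

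The small subunit reads the mRNA at the decoding centre, and the large subunit joins the amino acids and passes the new protein through its exit tunnel. A stalk of P proteins on the large subunit calls in the elongation factors. Cells make the ribosomal proteins in about equal numbers, and most of their mRNAs begin with a C followed by a run of pyrimidines, the 5′ terminal oligopyrimidine (TOP) motif. Through this motif mTOR and LARP1 control the translation of these mRNAs, a step that the amount of mRNA does not show. Proliferating cells, tumor cells among them, spend a large part of their mRNA and energy on ribosomes.

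Library totals were alike, from 16453233 to 17988030 estimated counts. RC48 replicate 1 stood apart from the other libraries. The log2 ratio of its CPM (counts relative to library size, scaled by TMM) to the Control mean had an SD of 0.83 over the 13055 genes tested, against 0.44 in RC48 replicate 2, 0.51 in RC48 replicate 3 and 0.21 to 0.24 in the Control libraries. Control replicate 3 differed from the other Control libraries by more than sampling noise, with a chi-square per degree of freedom over all genes of 10.5 and 12.8, against 1.51 between Control replicates 1 and 2. All 8 epithelial markers were detected, with a summed level of 11633 to 13400.4 CPM in Control and 13424 to 17711 CPM in RC48. The markers did not move together, since 4 of the 8 log2 fold changes were above zero. KRT7, the marker with the largest change, had 0.53, while EPCAM and FOXA1 had −0.49 and −0.44. Of 12 leukocyte markers 9 were listed and 7 were tested, with summed levels of 23.8 to 24.3 CPM in Control and 30.3 to 51.0 CPM in RC48. All 7 had a log2 fold change above zero. In 5 of the 7 (71.4%) every RC48 library was above every Control library, against 17.4% of all genes tested. Only ITGAM, an integrin of myeloid cells, was called higher in RC48 (0 to 0.29 against 3.08 to 4.19 CPM, adjusted p = 0.007 in the quasi-likelihood test of edgeR with Benjamini-Hochberg adjustment). CD3E and CD14 had log2 fold changes of 1.64 and 1.42, at no more than 1.40 CPM in any library. Of 9 fibroblast and endothelial markers 6 were tested, and their summed levels were 472 to 505 CPM in Control and 469 to 579.7 CPM in RC48. Log2 fold changes were above zero in 3 of these 6, with 0.74 for COL1A1 and 0.55 for COL3A1 against −0.86 for LUM. All samples come from 1 cell line. These values are levels of marker transcripts, and they cannot tell which cells the transcripts came from. The source of these transcripts was not tested.

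The ribosomal protein genes were among the most abundant mRNAs of SW780. Their deposited TPM is scaled for the effective length that each library gives to a gene. It had a median of 1774 in Control, against 19.5 over all genes tested. The highest Control level belonged to RPS27, a zinc-finger protein of the small subunit, with 7135 ± 31.5 TPM (SD, n = 3). Among the next highest were RPS21 with 5576 ± 455 TPM, RPS2 with 5243 ± 242 TPM and RPL39, a very small protein at the exit tunnel, with 4592 ± 80.8 TPM. The effective lengths of RPS27, RPS21 and RPL39 were very short, at 0.0229, 0.0241 and 0.0325 times that of the median gene. In CPM the Control mean of RPS27 was 254, against a highest member mean of 1948, so its rank held for TPM only. At the other end stood RPS27L, a paralog of RPS27 that is known as a p53 target, with 19.0 ± 1.23 TPM. RPL37 with 71.5 ± 6.09 TPM, RPL14 with 100.4 ± 3.71 TPM and RPL27A with 121 ± 1.15 TPM were also low in TPM for proteins that every ribosome holds. The effective length implied by the counts and TPM of these 4 genes was 1.46 to 2.51 times that of the median gene. The median annotated transcript had 637 bases for RPL37, 916 for RPL14 and 681.5 for RPL27A. Their Control means of 297, 386 and 292 CPM (counts relative to library size) lay inside the member range of 62.9 to 1948 CPM. For the members as a whole the median effective length was 0.183, and in 72 of 78 it was below that of the median gene. RPL3L, the RPL3 paralog of heart and skeletal muscle, had 0, 4 and 3 counts in Control replicates 1, 2 and 3 and 3, 2 and 1 counts in RC48 replicates 1, 2 and 3. It was at the limit of detection in both groups and was not tested, which left 78 members.

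The TOP motif was looked for at the gene starts that RefSeq gives for GRCh38.p14, as a C at the start itself followed by at least 4 bases that are C or T. Of the 63 members with an entry in this table, 46 (73.0%) had it, against 896 of all 13132 listed genes with an entry (6.82%). The starts of 8 members are shown because they span the order of the fold changes described next, with 15 bases before the start and 15 bases from the start on, on the coding strand. Capitals mark the TOP run where there was one. The first 4 belong to members with high log2 fold changes and the next 3 to members with low ones, and the last, RPS29, had the highest value of all. The positions are chr20:62387088-62387117 (plus) for RPS21, chr15:69452803-69452832 (plus) for RPLP1, chr5:150449725-150449754 (minus) for RPS14, chr19:55385917-55385946 (plus) for RPL28, chr13:27251543-27251572 (plus) for RPL21, chr9:19380222-19380251 (minus) for RPS6, chr15:66504841-66504870 (minus) for RPL4 and chr14:49598696-49598725 (minus) for RPS29.
RPS21: ggtgactagctgcttCCTTTCTCTCTCgcg
RPLP1: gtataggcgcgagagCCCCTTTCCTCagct
RPS14: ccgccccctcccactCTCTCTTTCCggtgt
RPL28: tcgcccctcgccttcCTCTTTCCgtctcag
RPL21: cggccccgcctctttCCTTTCggccggaac
RPS6: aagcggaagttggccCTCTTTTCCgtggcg
RPL4: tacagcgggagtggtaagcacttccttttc
RPS29: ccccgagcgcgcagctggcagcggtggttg
RPL4 and RPS29 had no TOP run at the listed start, which says nothing about starts used in these cells that the table does not hold. The 46 members with the motif had a median log2 fold change of 0.14 and the 17 without it a median of 0.08, and both sets spanned zero, from −0.32 to 0.96 and from −0.35 to 1.10.

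The main comparison asked which genes changed after RC48 exposure. None of the 78 ribosomal protein genes was called at an adjusted p under 0.05 in the quasi-likelihood test of edgeR with Benjamini-Hochberg adjustment, and the smallest adjusted p among them was 0.231. Over all 13055 genes tested the same threshold called 288 (2.21%). At an unadjusted p under 0.05 the member count was 1, RPL4, where 19.1% of all genes were under this limit. DESeq2 also called 0 members, where it called 5.70% of all genes. The fitted log2 fold changes of RC48 over Control ran from −0.35 to 1.10 with a median of 0.14, against 0.02 over all genes. They were above zero for 53 members and below zero for 25, but this split turned with the scaling. It was 26 of 78 above zero with a correction for effective length, 30 with GC content and length corrected, and 36 with limma on log2(TPM+1). Without RC48 replicate 1 it was 39 of 78. Standard errors ran from 0.11 to 0.58 with a median of 0.18, so the precision differed greatly between members. The 95% interval lay between −1 and 1 on the log2 scale for 67 members, reached 1 for 11 and reached −1 for 0.

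**Figure D1:**
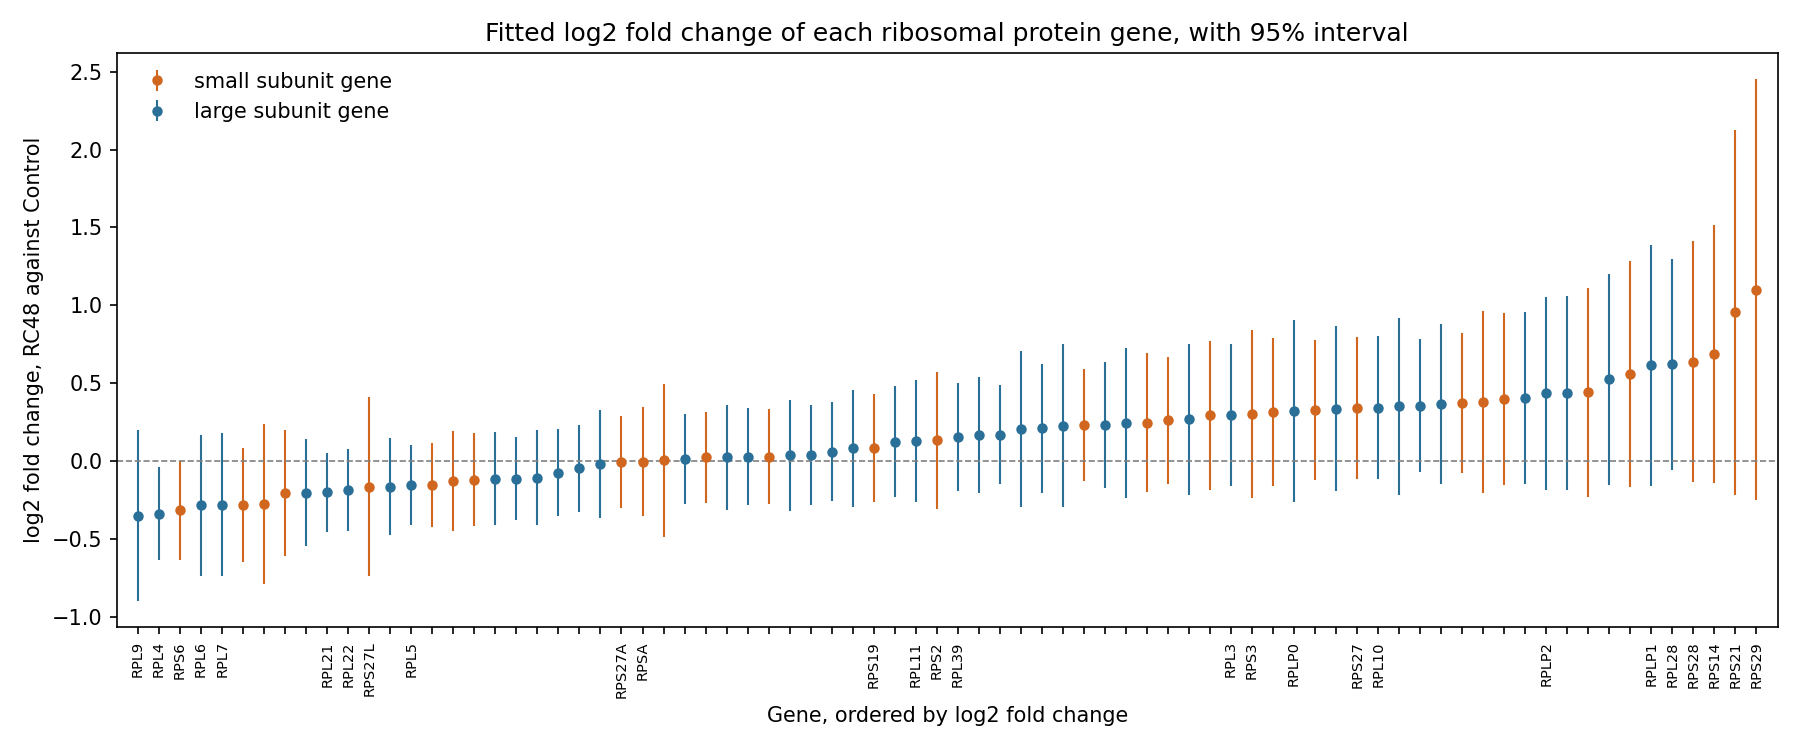
Fitted log2 fold change of RC48 over Control (y axis) for each of the 78 tested ribosomal protein genes (x axis, ordered by value, with names for some of the genes), with its 95% interval as a vertical line and the subunit by colour. Only the interval of RPL4 lies wholly on one side of zero before adjustment, and the intervals widen toward RPS21 and RPS29 at the right.

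On the CPM scale the groups overlapped in 76 members. In 0 members were all RC48 libraries above all Control libraries in CPM, where 17.4% of all genes tested showed this. In 2 members, RPL4 and RPL21, all RC48 libraries were below all Control libraries, where 14.1% of all genes tested showed this. Both member counts were below these shares, but both depended on the scale or on the libraries used. With a correction for length, 34 members (all lower in RC48) did not overlap, where 19.9% of all genes were lower without overlap, and with GC content and length corrected it was 33 members (all lower), where 21.7% of all genes were. On TPM over 5 libraries, which makes overlap less likely, 19 members were higher and 26 lower, where 22.9% and 39.3% of all genes were. In CPM over the same 5 libraries, without RC48 replicate 2, 39 members were higher and 4 lower, where 32.8% and 32.5% of all genes were.

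Together the members took 4.35%, 4.41% and 3.76% of the counts of Control replicates 1, 2 and 3. In RC48 replicates 1, 2 and 3 they took 5.02%, 3.78% and 4.42%. The means were 4.17% ± 0.359 and 4.41% ± 0.621 (SD, n = 3 each), and the difference of 0.234 percentage points was smaller than either SD. Of the TPM of a library they took 16.08%, 16.03% and 15.005% in Control and 15.1%, 14.3% and 15.4% in RC48, so the order of the group means depended on the scale.

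The 3 RC48 libraries did not move alike. The median member stood at a log2 ratio to the Control mean of 0.37 in RC48 replicate 1, −0.13 in RC48 replicate 2 and 0.14 in RC48 replicate 3. In Control replicates 1, 2 and 3 the median was 0.06, 0.09 and −0.17. Thus RC48 replicate 2 lay within the range of the Control medians and the other RC48 libraries lay above it. All 78 members were lower in CPM in Control replicate 3 than in both other Control libraries, and 72 were lower in RC48 replicate 2 than in RC48 replicate 3. Over all genes tested, the log2 ratio in Control replicate 3 rose with effective length (Spearman's rho 0.59). In Control replicates 1 and 2 rho was −0.39 and −0.51. With GC content and length corrected, the member median in Control replicate 3 was −0.03. The part of length in this difference was not tested. Between Control replicates 1 and 2 the chi-square per degree of freedom over the members was 5.995, so even these libraries differed beyond sampling noise.

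In RC48 replicate 1 the members spread apart instead of moving together. Their log2 ratios had an SD of 0.64, against 0.09 and 0.15 in RC48 replicates 2 and 3 and 0.03 to 0.06 in the Control libraries. In this library 32 members were over 1.5-fold above the Control mean and 6 were as far below it, with 9 over 2-fold above, and no other library held a single member past 1.5-fold. The highest ratio among the members was 8.97 times the lowest one, against 1.62 in RC48 replicate 2 and 1.60 in RC48 replicate 3. RC48 replicate 1 was the highest of the 6 libraries for 49 members and the lowest for 15. Over all genes tested, 22.6% were over 1.5-fold above and 24.0% as far below the Control mean in the same library.

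**Figure D2:**
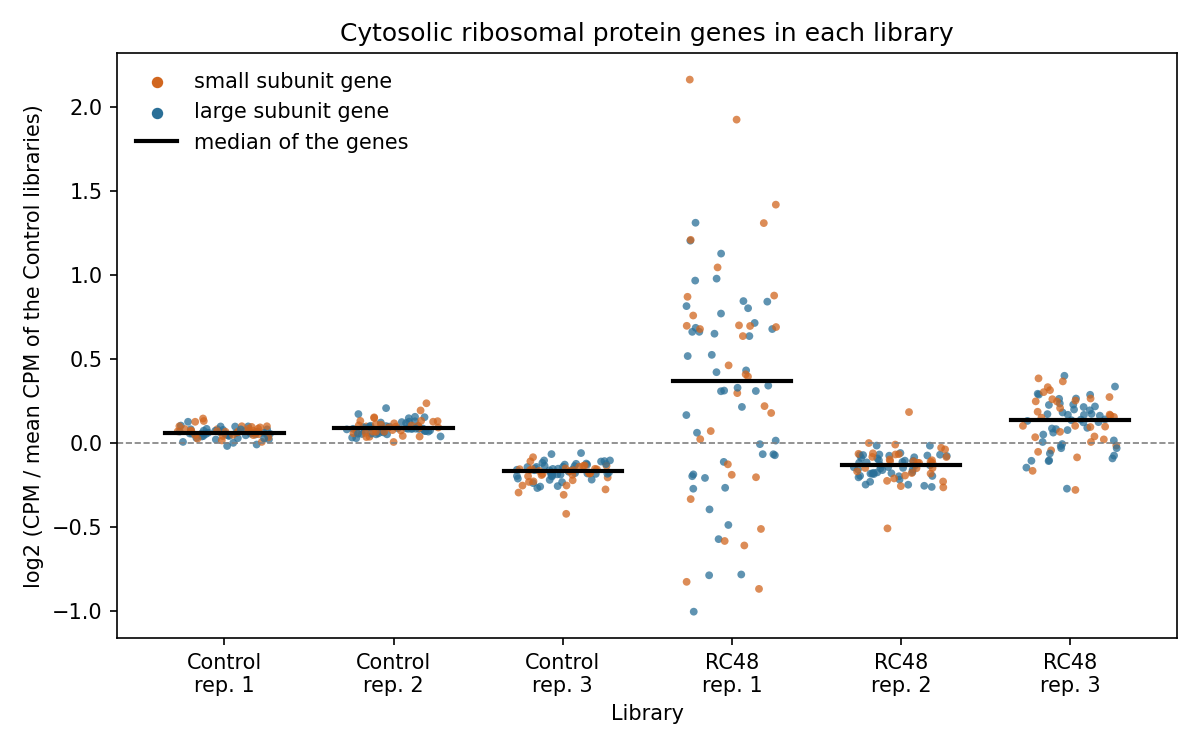
Log2 ratio of CPM to the mean of the Control libraries (y axis) in each of the 6 libraries (x axis), 1 point per ribosomal protein gene coloured by subunit, with the median as a black bar. The points lie close together in 5 libraries and spread with an SD of 0.64 in RC48 replicate 1, whose median is 0.37.

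The highest log2 fold changes belonged mostly to small proteins of the small subunit. RPS29, a zinc-binding protein in the head of the small subunit, had 116, 128 and 80.9 CPM in Control replicates 1, 2 and 3 and 485, 95.7 and 116 CPM in RC48 replicates 1, 2 and 3. RPS21 had 221, 241 and 171 CPM in Control and 801, 190.4 and 237 CPM in RC48. For both genes only RC48 replicate 1 was above the Control libraries, and the other RC48 libraries lay inside the Control range. The log2 fold change of RPS29 was 1.10 with a 95% interval from −0.25 to 2.45 (the quasi-likelihood test of edgeR with Benjamini-Hochberg adjustment, adjusted p = 0.304), and that of RPS21 was 0.96 with an interval from −0.21 to 2.13 (adjusted p = 0.303).

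RPS14, which lines the mRNA channel and whose loss marks the 5q- syndrome, had 563, 608 and 498 CPM in Control and 1489, 513 and 687 CPM in RC48. RPL28 had 563, 552 and 431 CPM in Control and 1188, 510.4 and 681 CPM in RC48. RPS28, a small protein at the mRNA exit, had 120.5, 129 and 99.5 CPM in Control and 289, 108 and 147 CPM in RC48. In these 3 genes RC48 replicates 1 and 3 were above every Control library, and RC48 replicate 2 was inside their range. Their log2 fold changes were 0.69, 0.62 and 0.64 with adjusted p of 0.299, 0.277 and 0.301 in the quasi-likelihood test of edgeR with Benjamini-Hochberg adjustment.

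The small subunit members had a median log2 fold change of 0.24, with 22 of 32 above zero, and the large subunit members a median of 0.13, with 31 of 46 above zero. Among 7 proteins of the decoding site and mRNA channel (RPS2, RPS3, RPS14, RPS15, RPS23, RPS26 and RPS28) all 7 values were above zero, with a median of 0.30 and a lowest value of 0.00. Under the other fits 4 to 7 of them were above zero, the 4 with the correction for length or without RC48 replicate 1. RPS3, an mRNA entry protein that also takes part in DNA repair, had 994, 1010.4 and 803 CPM in Control and 1585, 834 and 1040.5 CPM in RC48, with a log2 fold change of 0.30. RPS2, at the mRNA entry as well, had 1973, 2008 and 1663 CPM in Control and 2594, 1577 and 2015 CPM in RC48, with a log2 fold change of 0.13. RC48 replicate 2 was among the Control libraries for RPS3 and below all of them for RPS2.

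The stalk of the large subunit followed the same pattern. RPLP0, the stalk base, had 1562, 1578 and 1361 CPM in Control and 2697, 1292 and 1637 CPM in RC48. RPLP1 had 672, 753 and 600.4 CPM in Control and 1676, 641 and 784 CPM in RC48, and RPLP2, its partner, had 220.2, 231 and 185 CPM in Control and 415, 190.2 and 255 CPM in RC48. All 3 genes were above every Control library in RC48 replicates 1 and 3 and not in RC48 replicate 2. Their log2 fold changes were 0.32, 0.61 and 0.43, and none was called. The directions of RPLP0 and RPLP2 did not hold in every fit, with −0.04 for RPLP0 without RC48 replicate 1 and −0.20 for RPLP2 with corrections for GC content and length. RPL3, at the peptidyl transferase centre, and RPL10, which completes the large subunit late in its assembly, had log2 fold changes of 0.30 and 0.34 and the same order of RC48 libraries, from 1063 to 1229 CPM in Control and at 1879.6, 1112 and 1308 CPM in RC48 for RPL3, and from 549 to 627 CPM in Control and at 985, 566 and 732 CPM in RC48 for RPL10.

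The lowest log2 fold changes belonged to RPL9, RPL4, RPS6, RPL6 and RPL7. RPL4, whose long loop forms part of the exit tunnel, had 1160.4, 1169.7 and 1097 CPM in Control replicates 1, 2 and 3 and 769.5, 993 and 948 CPM in RC48 replicates 1, 2 and 3. RPL21 had 459, 458 and 407 CPM in Control and 386, 369 and 399.6 CPM in RC48. The groups did not overlap in either gene, and in RPL21 RC48 replicate 1 lay between the other RC48 libraries. RPL4 had a log2 fold change of −0.34 with a 95% interval from −0.64 to −0.04 and an adjusted p of 0.231, and RPL21 had −0.20 with an interval from −0.45 to 0.05 and an adjusted p of 0.311 (the quasi-likelihood test of edgeR with Benjamini-Hochberg adjustment).

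RPS6, the target of the S6 kinases downstream of mTOR, had 549.6, 539 and 453 CPM in Control and 361, 453 and 424 CPM in RC48. RC48 replicate 2 lay just above Control replicate 3, so the groups touched. Its log2 fold change was −0.32 and its adjusted p was 0.260 in the quasi-likelihood test of edgeR with Benjamini-Hochberg adjustment. RPL9 had 493, 505 and 418 CPM in Control and 236, 436 and 439.9 CPM in RC48, with a log2 fold change of −0.35. In RPL9 only RC48 replicate 1 was below the Control libraries. RPL6 and RPL7 showed this order too, with RC48 replicate 1 at 524 and 397 CPM against at least 821 and 615 CPM in every Control library, and both had a log2 fold change of −0.28.

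Ribosomal proteins with known tasks outside the ribosome showed small differences. RPL5 and RPL11 bind MDM2 when ribosome assembly is disturbed and so hold back the breakdown of p53. RPL5 had 341, 349 and 303 CPM in Control and 291, 293 and 308 CPM in RC48, with a log2 fold change of −0.16 and an interval from −0.41 to 0.10. RPL11 had 427, 432 and 365 CPM in Control and 551, 366 and 423 CPM in RC48, with a log2 fold change of 0.13 and an interval from −0.26 to 0.52. In both genes the groups overlapped. Over 9 members mutated in Diamond-Blackfan anaemia, RPL5 and RPL11 among them, the median log2 fold change was 0.03. RPS19, the best known of these, had 1441, 1416 and 1087 CPM in Control and 1338, 1282 and 1562 CPM in RC48, and here RC48 replicate 3 was the highest library.

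RPSA, which also serves as a laminin receptor, had 1208, 1157 and 1014 CPM in Control and 1313, 939 and 1116 CPM in RC48, with a log2 fold change of −0.00. RPS27A, which is made as a fusion with ubiquitin, had 519.5, 519 and 444 CPM in Control and 453, 473 and 551 CPM in RC48, with a log2 fold change of −0.01. The RC48 libraries lay on both sides of the Control mean in both genes. RPL22, a protein that is not needed for translation itself, had 294, 299.8 and 263 CPM in Control and 248, 239.8 and 266 CPM in RC48, with a log2 fold change of −0.19 and overlapping groups. RPS27L had 66.7, 67.4 and 54.6 CPM in Control and 35.5, 71.6 and 61.1 CPM in RC48, while its abundant paralog RPS27 had 256, 279 and 229 CPM in Control and 411, 240.6 and 317 CPM in RC48. Their log2 fold changes were −0.17 and 0.34, and RC48 replicate 1 was the lowest library for RPS27L and the highest for RPS27. The paralogs overlapped between the groups, and their difference was not tested.

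**Figure D3:**
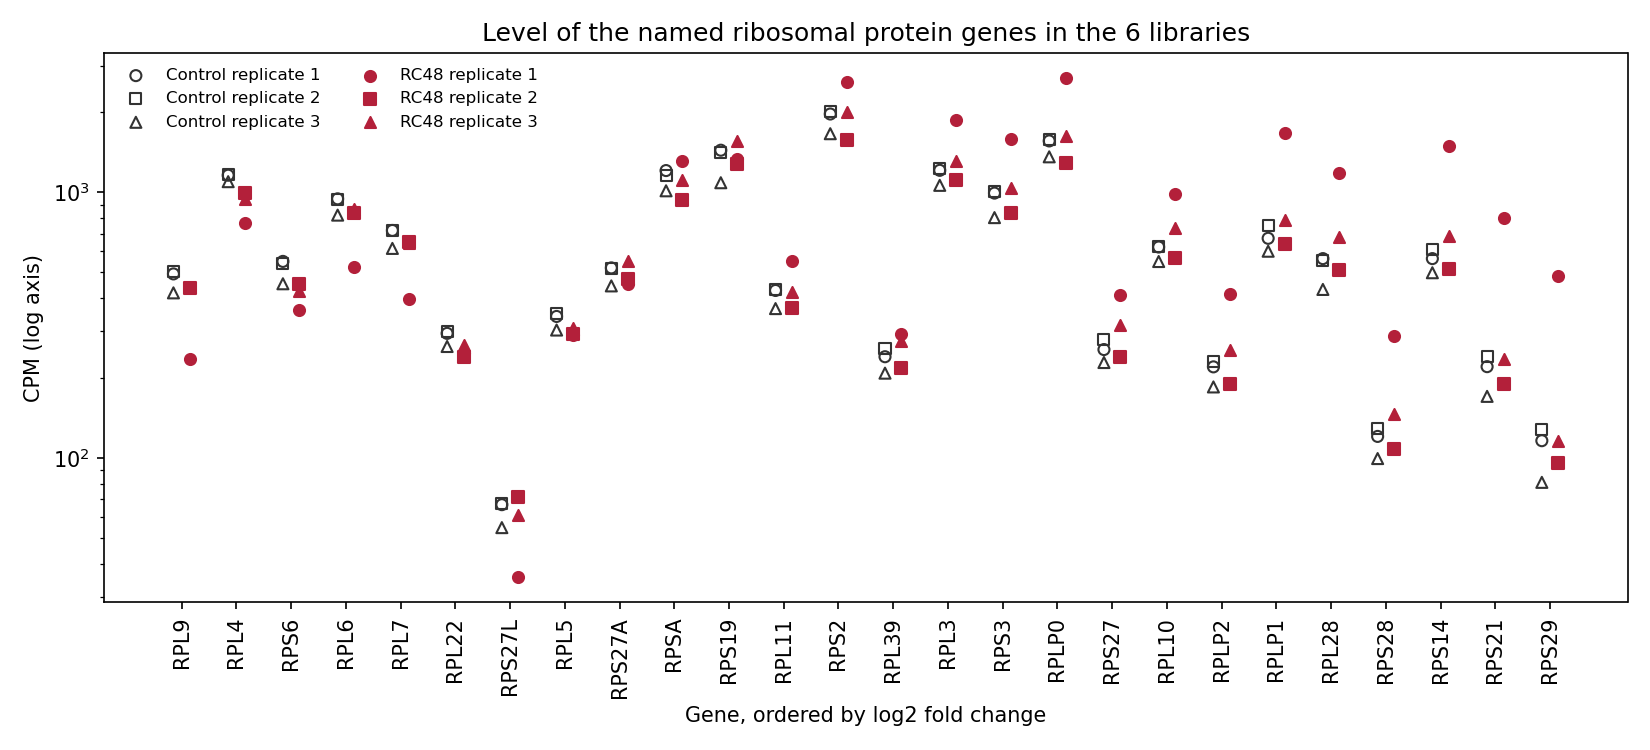
CPM on a log axis (y axis) of 26 tested ribosomal protein genes chosen by the naming rule (x axis, ordered by log2 fold change), with open symbols for the 3 Control libraries and filled symbols for the 3 RC48 libraries. RC48 replicate 1 (filled circles) is the lowest library at the left, 236 CPM for RPL9, and the highest at the right, 485 CPM for RPS29.

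Some members share sequence with other listed genes, and their estimated counts were split by the counting program. In RPSA and RPL41 the estimated counts were whole numbers within 0.05 in no library, and in 69 members they were in every library. RPSAP58, a pseudogene of RPSA, held 733 estimated counts in RC48 replicate 1 and 162 to 323 in the other libraries, against 16443 to 21617 for RPSA. The read-through gene RPL17-C18orf32 held 2023 counts over all libraries, RPS10-NUDT3 held 1376 and RPL36A-HNRNPH2 held 130.4.

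The scale changed the picture of genes with a short effective length. RPS29 had 2008 counts and 3833 TPM in Control replicate 1, and 7982 counts and 6258 TPM in RC48 replicate 1. RPL4 had 20068 counts and 814 TPM, and 12669 counts and 488 TPM, in the same libraries. The ratio of counts to TPM thus rose far more in RPS29, so the effective length was not 1 fixed value per gene. The cause of this difference was not tested. On the TPM scale the median member stood at a log2 ratio of −0.08 to the Control mean in RC48 replicate 1, where it stood at 0.37 on the CPM scale. In that library 17 members were above the Control mean in CPM and below it in TPM, 36 were above and 25 below on both scales, and 0 moved the other way. RPS27 had 7099.7, 7160.3 and 7145 TPM in Control and 4700.2, 6465 and 7572 TPM in RC48. RPL39 had 4616, 4658 and 4502 TPM in Control and 2652, 4127 and 4530.5 TPM in RC48. Thus RC48 replicate 1 was the highest library in CPM and the lowest in TPM for both genes. RPS29 stayed above Control in this library on both scales, with 3833, 3841 and 2921 TPM in Control and 6258, 3014 and 3312 TPM in RC48, as 1.77-fold in TPM and 4.48-fold in CPM. RPS14 had an effective length of 0.634 times that of the median gene, against 0.0195 for RPS29. Its level in this library was 2.32-fold the Control mean in TPM and 2.68-fold in CPM. TPM of RC48 replicate 2 was computed from its counts, and that of the other libraries is as deposited.

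Base composition moved with the member values as well. Across the members, Spearman's rho between the GC content of the transcripts and the log2 ratio was 0.39 in RC48 replicate 1, 0.19 in RC48 replicate 2 and 0.47 in RC48 replicate 3. Over all genes it was 0.74, −0.02 and 0.57. These are descriptions across genes of 1 library, which share that library and are not independent. The 26 members with the lowest GC content had a median log2 fold change of 0.03, and the 26 with the highest had 0.34, with 16 and 24 values above zero. With the trend on GC content subtracted, the median member stood at 0.24, −0.18 and 0.05 in RC48 replicates 1, 2 and 3. It then stood at 0.06, 0.09 and −0.17 in Control replicates 1, 2 and 3. With trends on both GC content and length subtracted, it stood at −0.05, −0.18 and −0.10 in RC48 and at 0.01, 0.01 and −0.03 in Control. After this second step each RC48 median was below each Control median, unlike on the CPM scale without corrections. The SD in RC48 replicate 1 was still 0.60 after either step. The part of GC content and length in the fold changes was not tested beyond these corrections.

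**Figure D4:**
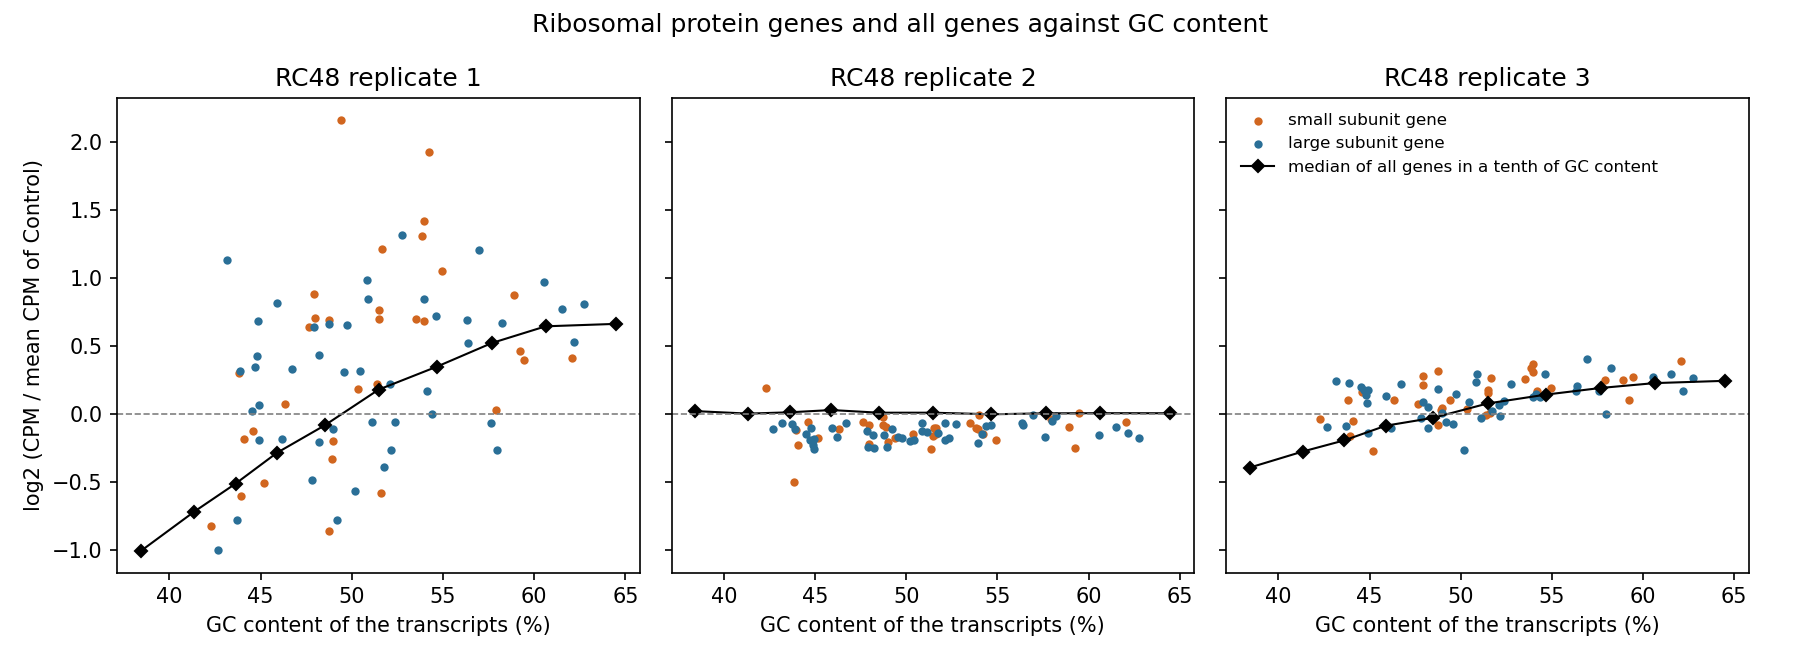
Log2 ratio of CPM to the mean of the Control libraries (y axis) against the GC content of the transcripts in percent (x axis) for the ribosomal protein genes in the 3 RC48 libraries, with the median of all genes in bins of GC content as a black line. The line climbs in RC48 replicates 1 and 3 and stays flat in RC48 replicate 2, and the genes scatter on both sides of it in RC48 replicate 1.

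Other ways of testing changed the calls. With corrections for GC content and length in edgeR, 4 members were called, RPL4, RPS2, RPL12 and RPL21, all lower in RC48, and 10.2% of all genes were called. RPS2 had a log2 fold change of −0.30 in that fit and of 0.13 without the corrections. With limma on log2(TPM+1) over the 5 libraries with deposited TPM, 4 members were called, RPS3A, RPL21, RPS6 and RPL4, all lower, and 22.2% of all genes were called. RPL4 and RPL21 were called lower in both. With voom and sample weights, limma called 32 members, 24 higher and 8 lower, where 61.4% of all genes were called. The weights were 0.0968, 0.262 and 7.64 for RC48 replicates 1, 2 and 3, so this fit rested mostly on RC48 replicate 3 in that group. For Control replicates 1, 2 and 3 they were 3.62, 2.49 and 0.572. Without RC48 replicate 2, which leaves 2 RC48 libraries, edgeR called 18 members, 17 higher and RPL4 lower, where 28.3% of all genes were called. In each of these the share of members called was below that of all genes. Without RC48 replicate 1, 0 members were called, where 6.82% of all genes were, and the members' median log2 fold change was −0.00.

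Ribosomal proteins under other names include RACK1, a scaffold on the small subunit, and FAU, a ubiquitin-like fusion that gives RPS30. RACK1 had 1186, 1210.5 and 1018 CPM in Control and 2622, 1028 and 1316 CPM in RC48. FAU had 185, 202 and 162 CPM in Control and 359, 185 and 238 CPM in RC48. In both genes RC48 replicates 1 and 3 were above every Control library, and RC48 replicate 2 was inside the Control range. Their log2 fold changes were 0.54 and 0.51 with adjusted p of 0.329 and 0.274 in the quasi-likelihood test of edgeR with Benjamini-Hochberg adjustment. Among 4 paralogs outside the symbol rule, RPL36AL and RPL26L1 had log2 fold changes of 0.41 and 0.40, and RPL22L1 and RPL7L1 had −0.30 and −0.02.

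Most genes that assemble ribosomes had values below zero. Of 36 assembly factors 0 were called by edgeR, and 11 had an unadjusted p under 0.05, as 2499 of all 13055 genes did (19.1%). The median log2 fold change was −0.25, and in 20 of 36 (55.6%, against 14.1% of all genes tested) every RC48 library was below every Control library. The median of the list ran from −0.41 to −0.21 over the other fits. Their summed level was 3658 to 3749 CPM in Control and 2869, 3134 and 3131 CPM in RC48. NOP58, a core protein of the particles that methylate ribosomal RNA, had 91.3, 89.98 and 89.1 CPM in Control and 36.7, 68.8 and 58.0 CPM in RC48, with a log2 fold change of −0.72 (the quasi-likelihood test of edgeR with Benjamini-Hochberg adjustment, adjusted p = 0.166). BRIX1, a large subunit assembly factor, had 60.9, 58.0 and 53.3 CPM in Control and 16.7, 46.5 and 39.6 CPM in RC48. In both genes all RC48 libraries were below all Control libraries, and RC48 replicate 1 was the lowest. UTP20 and DDX21, which act on the precursor of ribosomal RNA, had log2 fold changes of −0.61 and −0.60.

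RNA polymerase I makes the ribosomal RNA. Among 14 genes of this polymerase and its factors 0 were called by edgeR, and the median log2 fold change was −0.24. An unadjusted p under 0.05 was seen in 3 of the 14, against 19.1% of all genes. In 6 of 14 (42.9%) every RC48 library was below every Control library, and in 0 above, against 14.1% and 17.4% of all genes tested. TAF1D, a subunit of its promoter factor, had 17.1, 16.05 and 17.8 CPM in Control and 5.71, 13.9 and 9.52 CPM in RC48, and POLR1G, a polymerase subunit, had 29.3, 26.4 and 26.4 CPM in Control and 16.4, 22.3 and 18.04 CPM in RC48. Neither gene overlapped between the groups.

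Genes whose mRNAs are known to carry a TOP start but that are no ribosomal proteins had a median log2 fold change of −0.14 over 18 genes. Of these 0 were called by edgeR and 4 had an unadjusted p under 0.05, against 19.1% of all genes. NPM1, a nucleolar chaperone of ribosome assembly, had 849.7, 879.6 and 816 CPM in Control and 493, 720.0 and 617 CPM in RC48, with a log2 fold change of −0.48 and an adjusted p of 0.183 (the quasi-likelihood test of edgeR with Benjamini-Hochberg adjustment). In 7 of the 18 (38.9%) every RC48 library was below every Control library, where 14.1% of all genes tested showed this. Every RC48 library was above every Control library in 2 of them (11.1%), where 17.4% of all genes tested showed this. EIF3E and EIF3F, subunits of the same initiation factor, had log2 fold changes of −0.44 and 0.44, and the groups did not overlap in either. Of 15 genes of the mTOR pathway and regulators of TOP mRNAs 0 were called by edgeR, with a median log2 fold change of −0.05. An unadjusted p under 0.05 was seen in 3 of the 15, again against 19.1% of all genes. MYC, a transcription factor that drives ribosome production, had 117, 122 and 116 CPM in Control and 87.3, 82.2 and 78.2 CPM in RC48. Its libraries did not overlap, and it had the smallest adjusted p named here among the ribosome lists, 0.065, with a log2 fold change of −0.52 (the quasi-likelihood test of edgeR with Benjamini-Hochberg adjustment). The differences between these lists were not tested.

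**Figure D5:**
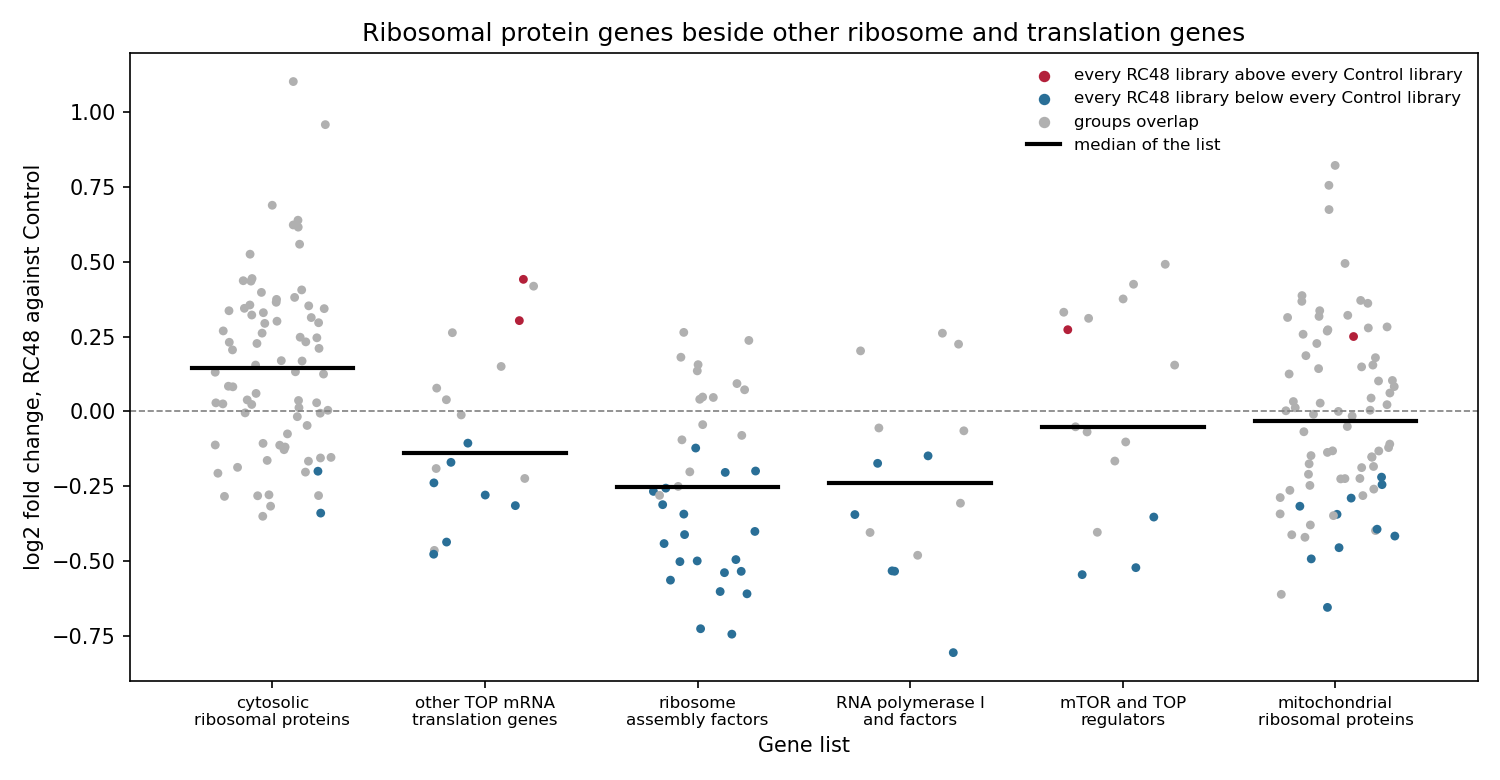
Fitted log2 fold change of RC48 over Control (y axis) for the ribosomal protein genes and 5 other gene lists (x axis), 1 point per gene, with the median as a black bar and colour for genes whose libraries do not overlap between the groups. The median is 0.14 for the ribosomal proteins with 2 genes in colour, and −0.25 for the assembly factors with 20 genes in colour.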

How the data were processed

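The authors extracted total RNA of SW780 cells, sequenced it on a BGI platform, removed poor reads with SOAPnuke, aligned the rest to reference genes with Bowtie2 and estimated counts per gene with RSEM. The submitters' processing notes name hg38. The annotation and the tool versions are not given in the sources used here. The deposited estimated counts are not normalized. TPM, scaled for effective length and depth by the authors, was used as deposited for 5 libraries. For RC48 replicate 2, TPM was computed here from its counts and the effective lengths that the other libraries imply. Done for RC48 replicate 3, this differed from the deposited TPM by a median of 0.0356 on the log2 scale over 11960 genes.

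After rounding to whole numbers, estimated counts passed filterByExpr and TMM scaling and entered the quasi-likelihood test of edgeR with Benjamini-Hochberg adjustment over all 13055 genes kept, RC48 against Control without covariates, called under an adjusted p of 0.05 (edgeR 4.0.16 and limma 3.58.1 in R 4.3.3). The study names limma, which was run as an alternative because deposited TPM was used for 5 libraries only. Two-sided exact permutation tests of 3 against 3 libraries cannot go below 0.1 and were not used. The scripts were tested on simulated data. GC content came from GENCODE v29 transcripts for 16234 of 16390 genes, all members included, and trends were fitted by loess with a span of 0.3. The length in the corrections was counts over TPM relative to the median gene, as the median over the 5 libraries with deposited TPM. It thus came from these same libraries, RC48 replicates 1 and 3 among them, and not from the annotation. Python 3.11.15 with pandas 2.3.3, numpy 2.4.6, scipy 1.17.1 and matplotlib 3.10.9 was used for tables and figures.

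The members, gene lists and tests were chosen with earlier results of these data known. Named are called members, the 5 highest and 5 lowest log2 fold changes, the 5 highest Control TPM, a fixed list of members, and up to 4 genes of each other list with the largest absolute log2 fold change. Some genes that these rules name are not reported here. RPL21, RPS3A, RPL12, RPL37, RPL14 and RPL27A were added after their values were seen. Alternatives were RLE size factors, library sizes alone, TMM without the members, no filter, a minimum of 10 counts in each library, DESeq2 1.42.0, limma on log2(TPM+1) and log2(TPM+0.1), voom with sample weights, corrections for GC content, length and both, the replicate number as a block with and without the GC correction, and each library left out in turn.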

Additional observations from a re-analysis of the deposited data

How the results depend on the processing

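Of the ribosomal protein genes, 0 were called in the reported fit. 4 were called with the corrections for GC content and length and 4 with limma on log2(TPM+1) or log2(TPM+0.1), and 32 with voom and sample weights. Leaving out 1 library gave 0 to 18, the 18 without RC48 replicate 2. Over all genes the count of 288 became 974 with the GC correction, 1338 with GC content and length, 719 with the replicate block and the GC correction, 2894 and 2829 with limma at pseudocounts of 1 and 0.1, 8018 with voom and sample weights and 744 with DESeq2. Leaving out 1 library gave 68 to 3726 over all genes, with 3726 without RC48 replicate 2, 897 without RC48 replicate 1, 93 without RC48 replicate 3, and 71, 78 and 68 without Control replicates 1, 2 and 3. The members' median log2 fold change of 0.14 was −0.11 with the length correction, −0.08 with both corrections and −0.04 with limma on TPM, and it ran from −0.00 to 0.27 with 1 library left out. The count of members without overlap, 2, was 5 with library sizes alone, 34 with the length correction, 33 with both corrections and 45 with limma at either pseudocount, and with 1 library left out it ran from 2 to 43, with 43 without RC48 replicate 2, 20 without Control replicate 3 and 10 without RC48 replicate 3. The shares without overlap over all genes were 31.5% in the reported values, 31.8% with library sizes alone, 35.8% with the length correction, 37.6% with both corrections, 62.3% with limma, 65.3% without RC48 replicate 2, 40.7% without Control replicate 3 and 34.5% without RC48 replicate 3. With fewer libraries in a group, overlap is less likely by construction. The members' share of counts differed by −0.07 to 0.55 percentage points between the groups with 1 library left out. No filter applies to this share in the reported value, so leaving the filter out was not run for it separately. RPS2 turned from a log2 fold change of 0.13 to −0.30 with both corrections (adjusted p = 0.0194 in the quasi-likelihood test of edgeR with Benjamini-Hochberg adjustment). The cause of these shifts was not tested. Over the 27 tested members that the rule named, 31 of 540 alternative values passed the threshold in the same direction. The sign was the other one in 48 values, in 14 members, and of these values only that of RPS2 with both corrections was called. Among them RPS27 went from 0.34 to −0.26 and RPL39 from 0.15 to −0.41 with limma on TPM, and RPLP2 from 0.43 to −0.20 with both corrections.

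The replicate numbers are shared between the groups. Deviations of same-numbered libraries from their group means correlated at −0.01, −0.12 and 0.01 over genes. Those of differently numbered libraries correlated at −0.11 to 0.13. The deviations of the 3 libraries of a group sum to zero. This check therefore cannot tell whether same-numbered libraries were handled together. With the replicate block, 0 members and 331 genes (2.54% of all genes tested) were called by edgeR.

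For ribosomal proteins these data are limited by the spread among the 3 RC48 libraries, and all 78 members were also lower in CPM in Control replicate 3. The member median in that library was −0.17 in CPM and −0.03 with GC content and length corrected. The sign of the members' median changed with the length correction as well. Which of these limits weighs most was not tested. The least abundant tested member, RPS27L, still had a Control mean of 62.9 CPM. mRNA levels give no translation rate, ribosome number or protein level. Intervals assume that the libraries of both groups vary alike, which the spread of RC48 replicate 1 does not bear out.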

Other observations

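The mitochondrial ribosome is a separate particle with its own proteins, encoded in the nucleus. Of 78 mitochondrial ribosomal protein genes 0 were called by edgeR, 3 had an unadjusted p under 0.05, and the median log2 fold change was −0.03. In 10 of them (12.8%) every RC48 library was below every Control library, and in 1 (1.28%) every RC48 library was above, against 14.1% and 17.4% of all genes tested. At the unadjusted threshold the share of all genes was 19.1%. Their summed level was 4279, 4309 and 3754 CPM in Control replicates 1, 2 and 3 and 4165, 3871 and 4151 CPM in RC48 replicates 1, 2 and 3. Control replicate 3 was the lowest library here as well, and the groups overlapped. MRPL55 had 17.6, 16.8 and 13.1 CPM in Control and 46.4, 16.2 and 21.5 CPM in RC48, and MRPL1 had 21.0, 20.7 and 18.6 CPM in Control and 6.86, 17.4 and 14.1 CPM in RC48. The log2 fold changes were 0.82 and −0.65, the extremes of the list, and RC48 replicate 1 was the highest library for the first gene and the lowest for the second.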
